A study of Homo sapiens with 4 samples.

Results

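MicroRNAs named for blood, nerve and liver cells were read out in PC-3, a human prostate carcinoma cell line, with and without the peptide apelin. The entries were matched by name, as all rows of the deposited table named for miR-9, miR-122, miR-124, miR-142, miR-144, miR-150, miR-223, miR-451a or miR-486. The families themselves were chosen with earlier results of these data known. Of these 9 families, 5 had a row and each had 1 arm listed, which makes 5 of the 1096 entries in the table (516 with a catalogue name, 580 predicted). The listed entries were miR-9-5p (neural), miR-486-5p (red cell), miR-122-5p (liver), miR-223-3p (myeloid) and miR-150-5p (lymphocyte). The table analysed here had no row named for miR-124, miR-142, miR-144 or miR-451a, and no level is given for them.

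Small RNA was sequenced from 2 libraries of PC-3 cells given apelin, a secreted ligand of the APJ receptor, at 10 µg/mL for 24 h, and from 2 libraries of untreated PC-3 cells (controls). All 4 were grown in medium with fetal bovine serum, and all came from this single tumour line. Whether the 2 libraries of a group were separate cultures is not given in the labels. The p-values therefore reflect the scatter of 4 libraries, which could be technical scatter. The aim stated for the series was to find microRNAs that differ under apelin.

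A mature microRNA guides an Argonaute protein to messenger RNAs through its seed, the bases near its 5′ end, and lowers their output. Some microRNAs are made almost entirely in 1 lineage, and so serve as marks of that lineage in mixed samples. miR-9 and miR-124 are abundant in the brain, where miR-9 acts on REST and NR2E1 in neural progenitors and miR-124 on PTBP1 in neurons. miR-142 is found across blood cells, miR-223 marks neutrophils and monocytes, and miR-150 is high in resting lymphocytes and represses MYB. miR-144 and miR-451a come from a shared transcript in developing red cells, and miR-486 is abundant in red cells too. miR-122 is the dominant microRNA of hepatocytes. A prostate carcinoma line belongs to none of these lineages.

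Mature sequences are shown for the 3 listed entries found in the RefSeq table (GRCh38.p14), because the seed sets what each one can pair with. Bases 2 to 8, the seed, are in capitals.
miR-9-5p: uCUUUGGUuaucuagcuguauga
miR-122-5p: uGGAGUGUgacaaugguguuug
miR-223-3p: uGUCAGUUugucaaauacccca
The 3 seeds were distinct. No other mature microRNA in that table, which does not hold every one, had any of them.

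miR-9-5p can come from any of 3 hairpins, whose sequences follow with the shared mature stretch in capitals (RefSeq, GRCh38.p14).
MIR9-1: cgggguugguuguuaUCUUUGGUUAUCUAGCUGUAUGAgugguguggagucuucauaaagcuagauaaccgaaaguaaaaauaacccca
MIR9-2: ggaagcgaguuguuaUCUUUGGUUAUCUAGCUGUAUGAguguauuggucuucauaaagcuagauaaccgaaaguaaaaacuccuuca
MIR9-3: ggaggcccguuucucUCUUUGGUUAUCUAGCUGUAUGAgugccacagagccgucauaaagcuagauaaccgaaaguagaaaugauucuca
The mature stretch is the same in all 3, so reads of it cannot be assigned to any one of them. In GENCODE release 29 (GRCh38), MIR9-1 lies on chromosome 1 from 156420341 to 156420429 (minus strand), in an intron of C1orf61. MIR9-2 lies on chromosome 5 from 88666853 to 88666939 (minus strand), in an exon of the lincRNA LINC00461. MIR9-3 lies on chromosome 15 from 89368017 to 89368106 (plus strand), in an intron of the lincRNA MIR9-3HG.

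The libraries held 5322429 and 5701358 counts with apelin and 6014838 and 5662879 counts in controls. Levels are the deposited TPM values, which here are counts scaled to 1000000 per library with no division by length. A count of 0 allows up to 3 counts, which is 0.499 to 0.564 TPM, and this floor is used below to call an entry detected. A mean of 10 TPM, needed for testing, is 53.2 to 60.1 counts. Intervals on single values are exact Poisson intervals at 95%, and they and the floor cover counting error only, since PCR reads are not independent molecules. These intervals and the floor also take a 0 as a counted 0. Catalogue entries above 0 and above 3 counts numbered 378 and 374 in apelin 1, and 358 and 353 in apelin 2. In control 1 they numbered 378 and 377, and in control 2 371 and 366. Few entries thus had so low a count above 0. Whether low counts were set to 0 before deposit was not tested.

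miR-9-5p was the highest of the 5 listed entries and was clearly detected in PC-3 cells. It had 300.05 TPM in apelin 1 and 399.20 TPM in apelin 2, against 297.76 TPM in control 1 and 298.96 TPM in control 2. Apelin 2 stood apart, while apelin 1 lay next to the controls. The counting intervals were 286 to 315 TPM for apelin 1 and 383 to 416 TPM for apelin 2, against 284 to 312 TPM and 285 to 314 TPM for the controls. By its mean over the 4 libraries, 324 TPM, it ranked 100 among the 516 catalogue entries. In RNA pooled from a culture, a level shared by all cells and one carried by a few cells cannot be told apart.

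miR-486-5p was the only red cell entry listed, and was also detected in every library. It had 33.82 and 28.24 TPM in the apelin libraries, from 180 and 161 counts, against 35.74 and 37.08 TPM in the controls, from 215 and 210 counts. Both apelin libraries lay below both controls, but each apelin counting interval overlapped both control intervals. The intervals were 29.1 to 39.1 TPM in apelin 1 and 24.0 to 33.0 TPM in apelin 2. In controls they were 31.1 to 40.9 TPM (control 1) and 32.2 to 42.5 TPM (control 2). Its mean of 33.7 TPM ranked 173 among catalogue entries. Its MIR486-1 hairpin lies in an intron of ANK1, the gene of red cell ankyrin, and MIR486-2 lies on the opposite strand (GENCODE release 29, chromosome 8). The other red cell families, miR-144 and miR-451a, had no row to set beside it.

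miR-122-5p, the liver entry, was low but above the floor in all 4 libraries. It had 4.32 TPM in apelin 1 and 1.75 TPM in apelin 2 (23 and 10 counts), against 4.82 TPM in control 1 and 2.30 TPM in control 2 (29 and 13 counts). The groups overlapped, and within each group library 1 was the higher. Counting intervals still met between the libraries of a group, at 2.74 to 6.48 TPM in apelin 1 and 0.84 to 3.23 TPM in apelin 2. Its hairpin, MIR122, lies on chromosome 18 from 58451074 to 58451158 (plus strand), in an exon of the lincRNA MIR122HG. Its listed length was 21 nt, 1 nt shorter than the mature sequence printed above.

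miR-223-3p, the myeloid entry, was detected in 1 library of each group. It had 11 counts (2.07 TPM) in apelin 1 and 0 in apelin 2, against 20 counts (3.33 TPM) in control 1 and 0 in control 2. By the floor of 3 counts the zeros allow up to 0.526 TPM in apelin 2 and 0.530 TPM in control 2. Their counting intervals reached 0.647 TPM in apelin 2 and 0.651 TPM in control 2. If these are counted zeros, the level of miR-223-3p differed between library 1 and library 2 of each group by more than counting error. Library 1 was the higher in both groups. MIR223 lies on chromosome X from 66018870 to 66018979 (plus strand), in an exon of the transcript AL034397.3.

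miR-150-5p, the lymphocyte entry, was the lowest of the 5. It had 0 counts in apelin 1 and 5 in apelin 2 (0.88 TPM), against 8 in control 1 (1.33 TPM) and 4 in control 2 (0.71 TPM). The counting interval of the zero in apelin 1 reached 0.693 TPM. It overlapped those of control 1 (0.574 to 2.62 TPM), apelin 2 (0.285 to 2.05 TPM) and control 2 (0.193 to 1.81 TPM). The groups overlapped. MIR150 lies on chromosome 19 from 49500785 to 49500868 (minus strand), inside no other annotated gene on its strand.

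**Figure D1:**
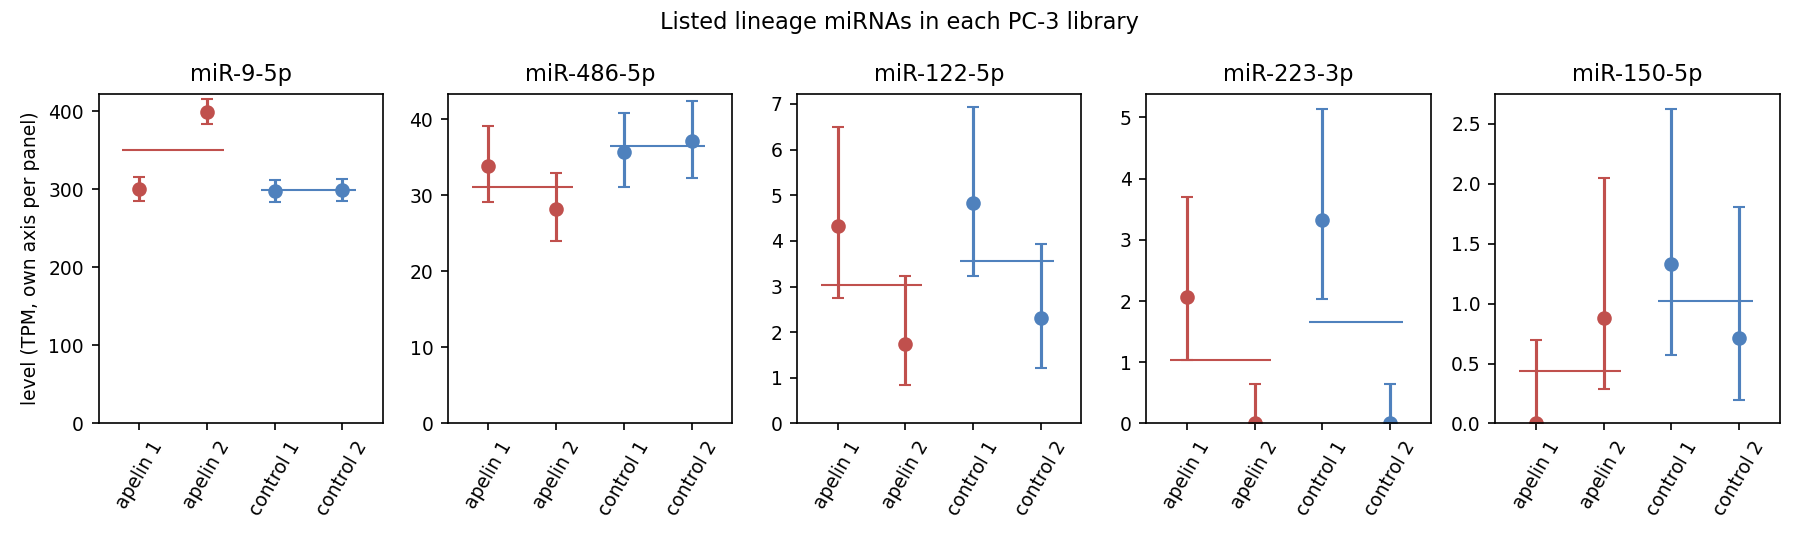
Level (TPM) of each listed lineage microRNA in the 2 apelin and 2 control libraries, with its own axis per panel, starting at 0. Points are libraries, bars exact Poisson intervals at 95% and lines group means. Apelin 2 stands apart for miR-9-5p at 399.20 TPM, and miR-223-3p is at 0 in both libraries numbered 2.

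By mean level the order was miR-9-5p, miR-486-5p, miR-122-5p, miR-223-3p and miR-150-5p, and it was the same per nt of listed length (21 to 23 nt). The 2 highest were separated from their neighbours in every library: the lowest miR-9-5p value (297.76 TPM) lay above the highest miR-486-5p value (37.08 TPM), and the lowest miR-486-5p value (28.24 TPM) above the highest miR-122-5p value (4.82 TPM). The lower 3 overlapped. miR-122-5p exceeded miR-223-3p within each of the 4 libraries, although their ranges met. miR-223-3p exceeded miR-150-5p in only 2 of the 4.

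The means of miR-122-5p (3.298 TPM, rank 269), miR-223-3p (1.35 TPM, rank 325) and miR-150-5p (0.73 TPM, rank 367) lay below the median of the catalogue entries' means, which was 3.498 TPM. On the TPM scale miR-9-5p lay 368 times, and miR-486-5p 3532 times, below miR-21-5p, the most abundant entry, which averaged 119113 TPM. The 5 lineage entries together held 0.0340% and 0.0430% of the counts in the apelin libraries and 0.0343% and 0.0339% in the controls.

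**Figure D2:**
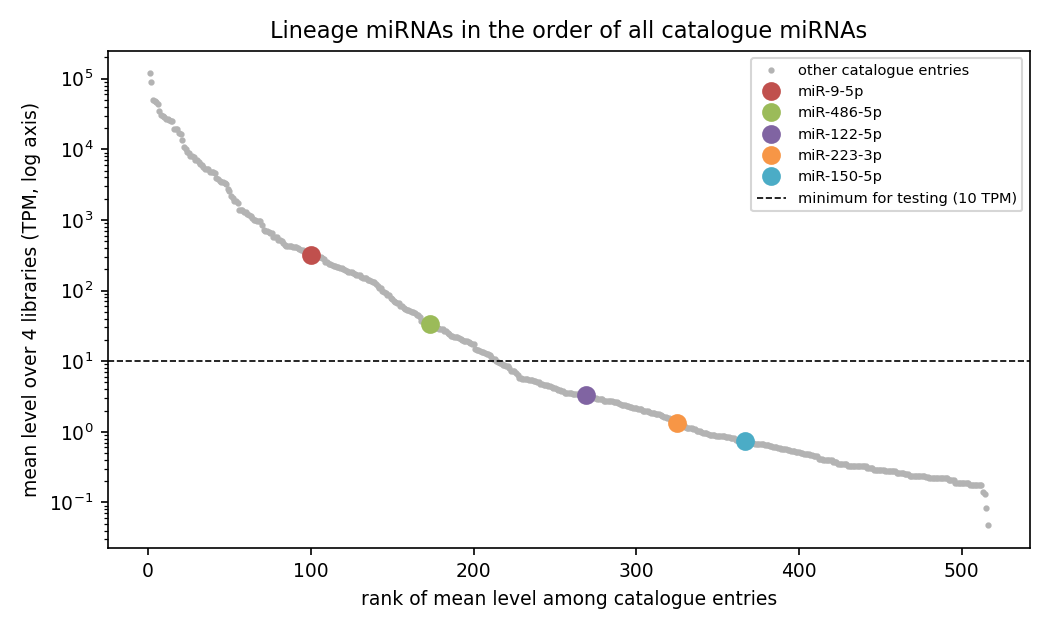
Mean level over the 4 libraries (TPM, log axis) of all 516 catalogue entries in order of rank, with the 5 lineage entries as coloured points. miR-9-5p (rank 100) and miR-486-5p (rank 173) lie above the dashed line at 10 TPM, and the other 3 lie below it.

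The difference between apelin and control was tested by edgeR's quasi-likelihood method, fitted across all 263 entries with a mean of at least 10 TPM. Of the 5 lineage entries 2 reached that mean, and neither passed the test, against a background of 0% of all tested entries called. At an unadjusted p under 0.05 there were 15 of the 263. DESeq2 called 20.2% of the same entries and limma on log2(TPM + 1) called 4, in each case neither of these 2. Of the 213 tested entries with a catalogue name, DESeq2 called 25.

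For miR-9-5p the mean was 349.6 ± 70.1 TPM with apelin and 298.4 ± 0.8 TPM in controls (SD, n = 2 each). On the log2 scale the fitted difference was 0.26 ± 0.23 (SE; edgeR adjusted p = 0.688), with a 95% interval of -0.50 to 1.01. Without apelin 2 it was -0.072 and without apelin 1 it was 0.47, so its sign rested on apelin 2. On the TPM scale both apelin libraries lay above both controls, as did 20.9% of tested entries. With TMM scaling, which the test uses, apelin 1 stood at 293 scaled counts, between control 2 (289) and control 1 (304), and the groups overlapped.

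For miR-486-5p the mean was 31.0 ± 3.9 TPM with apelin and 36.4 ± 0.9 TPM in controls (SD, n = 2 each). On the log2 scale the fitted difference was -0.21 ± 0.20 (SE; edgeR adjusted p = 0.688), with a 95% interval of -0.86 to 0.43. Both apelin libraries lay below both controls on the TPM scale, as did 17.5% of tested entries, and also with TMM scaling (33.0 and 29.3 against 36.5 and 35.8 scaled counts). This interval too spans 0.

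**Figure D3:**
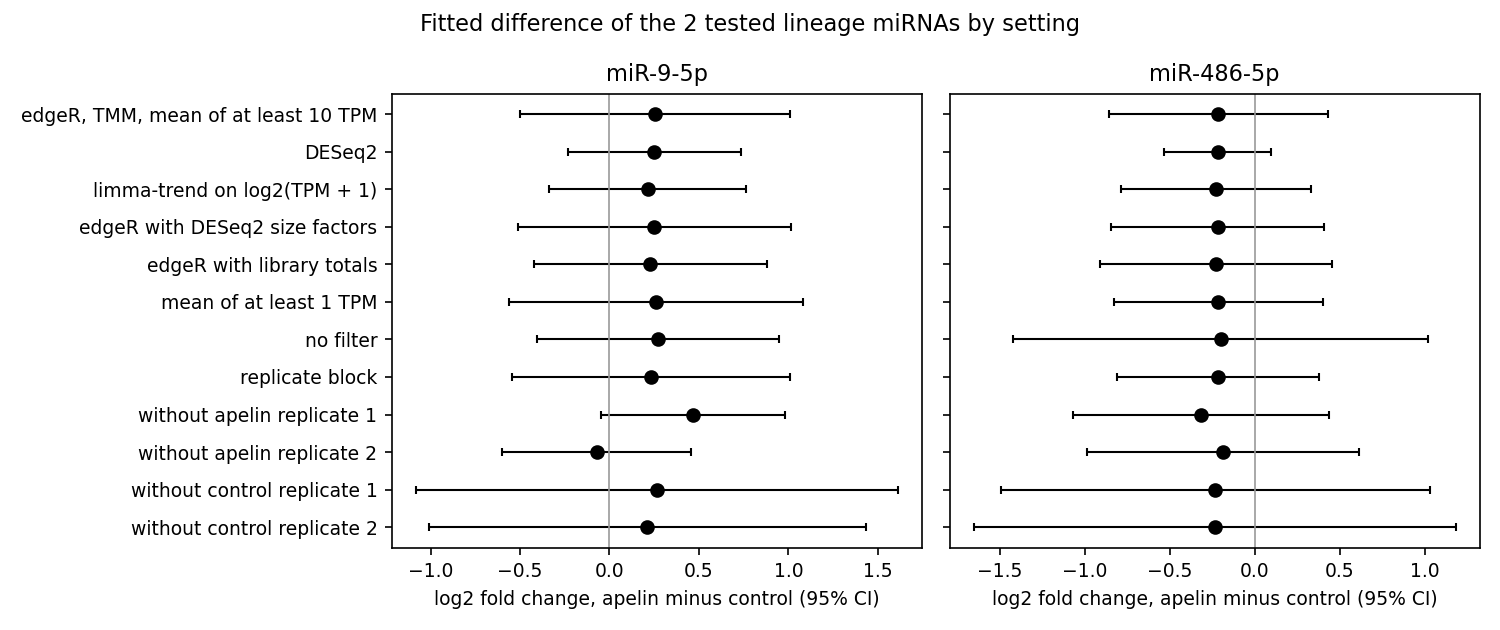
Fitted log2 fold change, apelin minus control, of miR-9-5p and miR-486-5p under each setting, with 95% confidence intervals. Every interval spans 0, and miR-9-5p falls to the negative side without apelin replicate 2 (-0.072).

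The 3 lower entries did not reach the minimum for testing. In a fit of the 471 entries with a mean of at least 1 TPM, the log2 difference of miR-122-5p was -0.24 ± 0.85 (SE; edgeR adjusted p = 0.979). Its sign turned with 1 library left out (0.23 without apelin 2, 0.40 without control 1). No fold is given for miR-223-3p or miR-150-5p, since each was at 0 in a library of at least 1 group and had no more than 20 counts elsewhere.

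A pair of the low entries differed more by library number than by treatment. For miR-122-5p and miR-223-3p, both libraries numbered 1 lay above both libraries numbered 2. Among the 126 catalogue entries with means of 1 to 10 TPM, 23 (18.3%) had that order and 12 (9.52%) the opposite one. In the same 126, both apelin libraries lay below both controls in 30 (23.8%) and above them in 19 (15.1%). The stricter form shown by miR-223-3p, more than 3 counts in both libraries numbered 1 and 0 in both numbered 2, was met by 11 of the 516 catalogue entries (2.13%), and its opposite by 5 (0.969%). By treatment, 6 (1.16%) had more than 3 counts in both apelin libraries and 0 in both controls, and 13 (2.52%) the reverse. The labels do not say that a number marks a shared culture or day, and what the numbers stand for was not tested.

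Some other microRNAs linked to the same tissues were more abundant than any of the lineage entries, and others were lower than miR-9-5p. They came from lists of names that are not among the 9 families, and none of their tested entries was called by edgeR. Of 6 other blood names 4 were listed and 3 tested. miR-146a-5p, induced by NF-kB, had 7569.48 and 5846.16 TPM with apelin and 5644.04 and 5421.09 TPM in controls. miR-181a-5p, which tunes lymphocyte receptor signalling, averaged 3300 ± 376 TPM with apelin and 3655 ± 231 TPM in controls (SD, n = 2 each). miR-342-3p, which is high in blood cells, had 423.49 and 413.76 TPM with apelin and 516.22 and 364.13 TPM in controls. miR-155-5p, which is high in activated lymphocytes, had 0 counts in both apelin libraries, against 11 in control 1 and 0 in control 2. Entries of this list thus lay at both ends of the scale in the same cells.

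Of 11 other neural names 8 were listed, as 9 entries, of which 5 were tested. miR-128, abundant in brain, was listed under 2 copy names that share a mature sequence. The table gives the copies different counts, how reads were divided between them is not known here, and their values are uncertain. miR-128-1-3p averaged 1245 ± 46 TPM with apelin and 1504 ± 26 TPM in controls (SD, n = 2 each), with a log2 difference of -0.25 ± 0.12 (SE; edgeR adjusted p = 0.627). miR-128-2-3p averaged 1085 ± 49 TPM with apelin and 1318 ± 15 TPM in controls (SD, n = 2 each), with a log2 difference of -0.26 ± 0.12 (SE; edgeR adjusted p = 0.627). DESeq2 put the copies on either side of the threshold, with adjusted p = 0.0499 for miR-128-1-3p and 0.0631 for miR-128-2-3p. That was its 1 call among the 5 tested, beside 20.2% of all tested entries and 25 of the 213 tested entries with a catalogue name. miR-218-5p, known from motor neurons, lay near miR-9-5p, with 268.30 and 446.91 TPM with apelin and 351.30 and 318.04 TPM in controls. miR-7-5p, found in neuroendocrine cells, averaged 61.1 TPM over the 4 libraries. The median log2 fold change of the 5 was -0.084, beside -0.018 over all 263 tested entries.

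Of 4 other liver names 2 were listed. miR-194-5p averaged 248.6 ± 6.4 TPM with apelin and 194.5 ± 28.6 TPM in controls, and miR-192-5p 118 ± 6 TPM with apelin and 102 ± 5 TPM in controls (SD, n = 2 each). Both had fitted values above 0 (0.38 and 0.24) and neither passed the test (edgeR adjusted p = 0.627 and 0.650). Both stood well above miR-122-5p, the hepatocyte entry, in every library.

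As a check of the labelled cell type, 7 of 8 epithelial or carcinoma names were listed and 6 were tested. miR-200b-3p, which represses ZEB1, averaged 6478 ± 15 TPM with apelin and 6793 ± 172 TPM in controls, and miR-182-5p 7536 ± 106 TPM with apelin and 7911 ± 1541 TPM in controls (SD, n = 2 each). miR-203a-3p, a keratinocyte microRNA, was at 0 in 3 libraries and had 15 counts in control 1. DESeq2 called 2 of the 6, named here for that call, miR-205-5p (adjusted p = 0.0129) and miR-200c-3p (adjusted p = 0.0376), both lower with apelin. This stands beside 20.2% of all tested entries, and 25 of the 213 tested entries with a catalogue name. The median of the means was 3.298 TPM over the 5 lineage entries, against 5624 TPM over the listed epithelial entries, which were widely spread. miR-205-5p averaged 86.2 TPM and miR-200c-3p 28.8 TPM over the 4 libraries. Both lay below miR-9-5p (324 TPM), and miR-200c-3p also lay below miR-486-5p (33.7 TPM). The name with no row was miR-141-3p. Part of these lists overlaps with what many tissues express, and no test was made between lists.

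**Figure D4:**
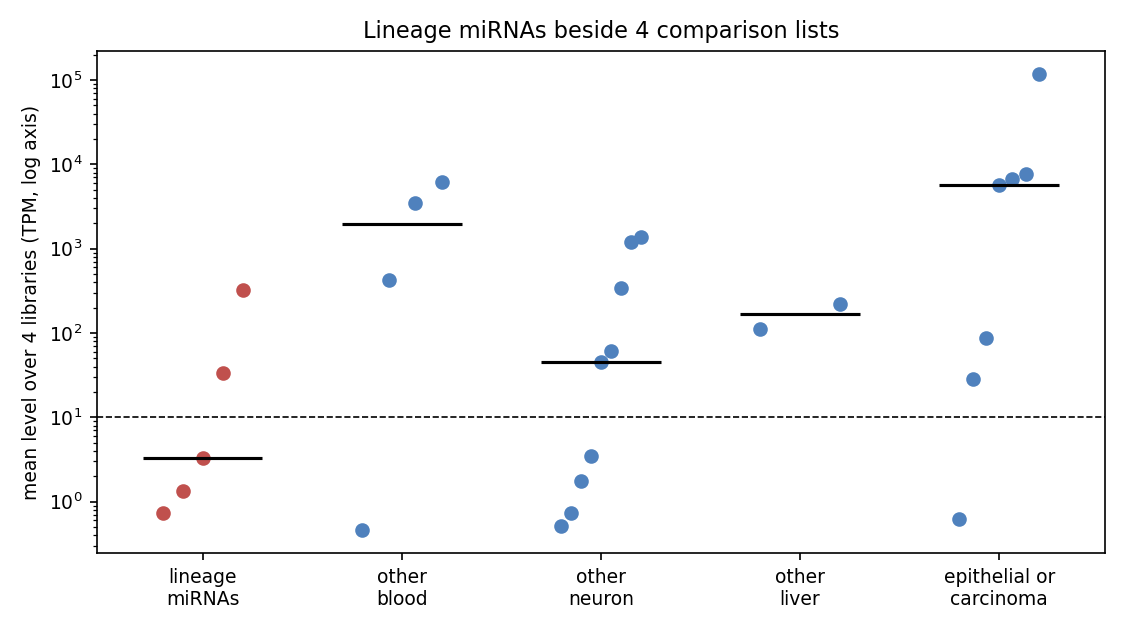
Mean level over the 4 libraries (TPM, log axis) of each listed entry, for the 5 lineage microRNAs and 4 comparison lists. Points are entries, short lines list medians, and the dashed line is the minimum for testing at 10 TPM. The lineage entries run from 0.73 to 324 TPM. The epithelial entries run from 0.62 to 119113 TPM, with a median of 5624 TPM.

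The likeness of profiles was measured as the distance between log2(TPM + 1) values centred on each entry's own mean, over the 4 libraries and against all other tested catalogue entries. Nearest to miR-9-5p were miR-200a-3p (distance 0.026), miR-34a-5p (0.063) and miR-30a-5p (0.099). miR-200a-3p shared the single high library, with 928.71 and 1216.38 TPM with apelin and 906.43 and 902.54 TPM in controls. Nearest to miR-486-5p were miR-324-3p (0.027), miR-93-5p (0.058) and miR-320c (0.094). miR-324-3p had 123.06 and 104.36 TPM with apelin and 128.02 and 134.21 TPM in controls. With 4 libraries such nearness describes only which library was high or low.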

How the data were processed

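Libraries were made by adaptor ligation, PCR and gel size selection, per the labels' protocols. Ligation favours some sequences, so levels of different microRNAs compare only roughly. Per the submitters' processing notes, Trimmomatic 0.30 and DESeq2 were used; the sources used here do not give the aligner, catalogue or build. The authors deposited raw counts and TPM values, where TPM equals the count scaled to 1000000 per library, to within 0.005 in 3 libraries and 0.151 in apelin 2. No listed entry was at 0 in all 4 libraries.

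From the counts, edgeR 4.0.16 (R 4.3.3) gave the quasi-likelihood test with TMM scaling, two-sided, apelin minus control, over entries with a mean of at least 10 TPM, with Benjamini-Hochberg adjustment and a threshold of 0.05. Each SE is the absolute log2 difference divided by the root of F. The smallest exact permutation p for 2 libraries against 2 is 0.333. DESeq2 1.42.0 and limma 3.58.1 on log2(TPM + 1) were alternatives. The test was checked on simulated counts with changes far larger than the differences fitted for the lineage entries. That check therefore does not bear on differences of their size. The 9 families and the comparison lists were chosen with earlier results of these data known. All matched entries are named, with up to 4 of the most abundant entries per list and the 3 nearest profiles. miR-203a-3p, miR-205-5p, miR-200c-3p and the neural entries under 10 TPM were added after their values were seen. Figures and tables used matplotlib 3.10.9, scipy 1.17.1, numpy 2.4.6 and pandas 2.3.3 under Python 3.11.15.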

Additional observations from a re-analysis of the deposited data

How the results depend on the processing

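miR-486-5p kept a negative log2 fold change in all 16 alternatives, from -0.32 to -0.15, and miR-9-5p a positive one in 14 of 16, from 0.21 to 0.49 (0.47 without apelin 1 in the main filter). The exceptions for miR-9-5p were both without apelin 2 (-0.072, and -0.040 at a mean of at least 1 TPM). miR-122-5p turned to 0.23 without apelin 2 and 0.40 without control 1. None of these passed the test in any setting that could test it. Over all entries the count called was 0, but 53 with DESeq2, 4 with limma, 52 with no filter, and 0 to 19 with a library left out (0 to 6 at a mean of at least 1 TPM, added after seeing the data). With a replicate block edgeR called 0, with miR-9-5p at 0.23 and miR-486-5p at -0.22. Entries with an unadjusted edgeR p under 0.05 numbered 50 with the block and 15 without it. The labels do not pair libraries, and same-numbered deviations correlated at -0.069 over 263 entries. Of 213 tested catalogue entries, 55 (25.8%) had both libraries numbered 1 above both numbered 2. The opposite order was met by 28 (13.1%). The control mean of miR-9-5p was 306 when scaled to 1000000 catalogue counts. At more than 10 counts, 2 lineage entries remained detected in apelin 2. The summed level was 44.2 TPM higher with apelin, and -0.76 (without apelin 2) to 89.1 TPM (without apelin 1) with a library left out. Only miR-9-5p had a higher mean with apelin (349.6 against 298.4 TPM). The means were lower with apelin for miR-486-5p (31.0 against 36.4 TPM) and miR-122-5p (3.035 against 3.56 TPM). So were those of miR-223-3p (1.035 against 1.665 TPM) and miR-150-5p (0.44 against 1.02 TPM). The cause of the shifts between settings was not tested. Fits with a library left out also had fewer samples. Counts were low for miR-150-5p and miR-223-3p, at 0 to 20. If its zeros are counted zeros, miR-223-3p differed between library 1 and library 2 of each group by more than counting error.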

Other observations

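Among the lower neural entries, miR-129-5p had 14 and 12 counts with apelin, against 26 and 27 counts in controls. miR-219a-5p had 11 and 5 counts with apelin and 0 in both controls. The groups overlapped for miR-212-3p (8 and 9 counts with apelin, 24 and 0 in controls). They also overlapped for miR-138-5p (0 and 6 with apelin, 6 and 0 in controls). All these means lay under 10 TPM, so none was tested in the main comparison, and these entries were singled out after their values were seen. Of catalogue entries with means of 1 to 10 TPM, 23.8% had both apelin libraries below both controls, as miR-129-5p did. More than 3 counts in both apelin libraries and 0 in both controls, as for miR-219a-5p, was met by 1.16% of the 516 catalogue entries. Listed lengths equalled the RefSeq mature length for 213 of 452 catalogue entries matched by name (47.1%), and were longer for 143 and shorter for 96.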
